A study of Brassica rapa subsp. chinensis with 6 samples.

Results

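The enzymes described are 5 abundant metabolic genes of pakchoi (Brassica rapa subsp. chinensis): a myo-inositol 1-phosphate synthase type 2 (Bra011830), the chloroplast beta-amylase CT-BMY (Bra012676), the galactinol synthase ATGOLS3 (Bra031663), a pyruvate orthophosphate dikinase, PPDK (Bra039540), and a catalase (Bra025832). They were chosen from the 2958 genes that the authors called as different between a chlorotic mutant and its wild type, because all 5 averaged more than 10000 reads in wild type plants and were lower in the mutant. Level and direction are therefore part of the choice and are given as a description, with no test. RNA came from the aboveground parts at the trifoliate stage, with 3 libraries of strain 564, genotype wild type, and 3 of strain 564Y, genotype mutant. The labels name no gene behind the mutant, no treatment and no plant age in days, and the mutant is a single strain.

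These enzymes sit where a leaf stores, moves and burns carbon. Inositol phosphate synthase opens the synthesis of myo-inositol, and galactinol synthase joins inositol to galactose, the first step towards the raffinose sugars that accumulate in cold, dry or heated leaves. Beta-amylase releases maltose from starch in the chloroplast, mostly at night. PPDK turns pyruvate into phosphoenolpyruvate, a step best known from C4 photosynthesis in maize, and in the C3 leaf of Arabidopsis it is linked to nitrogen export from ageing leaves. Catalase breaks down the hydrogen peroxide that glycolate oxidase makes in peroxisomes during photorespiration.

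All 5 genes were at 36.0% to 47.6% of their wild type level in the mutant. Levels are the authors' base means, mean reads scaled by the size factors of the libraries, and are called normalised reads here. Of all listed genes, 40.3% were lower in the mutant. The direction of the 5 is fixed by their choice, and nothing is read from that share. Together the 5 held 133405 reads per wild type library and 57786 per mutant library. Their share of all reads of listed genes was 9.89% for 564 and 3.44% for 564Y. Within the reads of lower genes alone, the wild type share was 14.2% and the mutant share 16.5%. In such tissue samples, fewer cells of a type and less RNA per cell cannot be told apart.

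Inositol phosphate synthase (Bra011830) had the most reads of any listed gene in the wild type, with an authors' mean of 47416 normalised reads against 17059 in the mutant. That is a 2.78-fold fall, with an interval of 2.75 to 2.81 that covers counting error only. The authors' deposited table gives it an adjusted p of 7.59e-70. In the mutant it was the ninth by mean reads.

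Galactinol synthase ATGOLS3 (Bra031663), which uses inositol later in that route, averaged 15898 normalised reads in strain 564 against 7280 in strain 564Y. The fall was 2.18-fold (counting interval 2.15 to 2.22), with an adjusted p of 3.01e-40 in the authors' deposited table.

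Beta-amylase CT-BMY (Bra012676) averaged 39348 and 18744 normalised reads, the smallest fall of the 5 at 2.10-fold (counting interval 2.08 to 2.12). Its adjusted p in the authors' deposited table was 1.38e-37. On unscaled mean reads, 38456 against 19391, its log2 ratio was -0.99 in place of -1.07, just short of the authors' limit of 1.

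PPDK (Bra039540) averaged 12969 normalised reads in strain 564 against 5081 in strain 564Y, a 2.55-fold fall (counting interval 2.51 to 2.60). The authors' deposited table gives it an adjusted p of 9.82e-46. Catalase (Bra025832) averaged 20862 and 7695, a 2.71-fold fall (counting interval 2.67 to 2.75) with an adjusted p of 3.8e-57 in the authors' deposited table. Catalase and inositol phosphate synthase thus had the larger falls, and both amylase and galactinol synthase the smaller ones.

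Set per kilobase of coding length, which allows levels to be compared between genes, the order in the wild type was inositol phosphate synthase at 30930 normalised reads per kilobase, beta-amylase at 23890, galactinol synthase at 15725, catalase at 14105 and PPDK at 4935. In the mutant, beta-amylase stood first at 11381, followed by inositol phosphate synthase at 11128, galactinol synthase at 7201, catalase at 5203 and PPDK at 1933. The first place changed hands: inositol phosphate synthase was 1.29 times the amylase per kilobase in strain 564 and 0.978 times in strain 564Y. Galactinol synthase and catalase were also close in the wild type, at a ratio of 1.11, and 1.38 in the mutant. No SD is available for these levels, so the order of such neighbours was not tested.

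**Figure D1:**
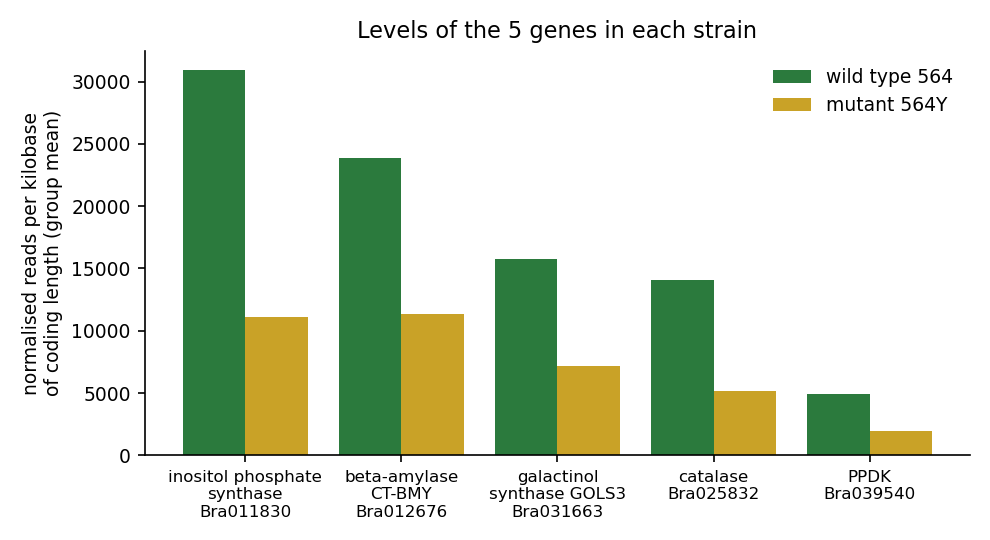
Normalised reads per kilobase of coding length (vertical axis) of the 5 genes (horizontal axis), as the authors' group means of 3 libraries in strain 564 and 3 in strain 564Y, with no error bars because library values of these genes are not unique. Each mutant bar stands at 36.0% to 47.6% of its wild type bar.

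The table deposits means only, but the mean reads and the base mean together restrict what each library can have held. The reads of the 3 libraries must be whole numbers with the right sum, and divided by the size factors they must give the base mean. For 2619 of the 2958 genes just 1 set of reads met both conditions in each strain. For these 5 genes several sets did, since the number of sets grows with the reads. Libraries are called A, B and C by size factor within each strain, since nothing ties them to the numbered replicates, and values of 3 libraries are given in that order.

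In the mutant the limits were narrow for the less abundant genes. Catalase allowed 12 sets, with library A at 6013 to 8306 normalised reads, library B at 6424 to 8964 and library C at 8109 to 8356. Galactinol synthase allowed 11 sets, with A at 6114 to 8198, B at 6217 to 8526 and C at 7200 to 7425. PPDK allowed 11 sets, with A at 3908 to 5992, B at 3880 to 6189 and C at 5145 to 5370. No mutant library of these 3 genes could thus have exceeded 8964, 8526 and 6189 normalised reads. These limits lie below the wild type means of 20862, 15898 and 12969. The genes were chosen as lower from the same means that set the limits, so this comparison is a description and no test.

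The coefficient of variation of the mutant libraries lay between 6.47% and 19.7% for catalase. It lay between 1.53% and 16.6% for galactinol synthase and between 3.13% and 22.5% for PPDK. Inositol phosphate synthase, with 80 sets, and beta-amylase, with 81 sets, were held less tightly in the mutant. Their library C was nevertheless restricted to 17240 to 19014 and to 18067 to 19864 normalised reads.

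In the wild type, libraries A and B could take almost any value, and the restriction falls on library C. It held 35103 to 55173 normalised reads of inositol phosphate synthase, 30365 to 46876 of beta-amylase, 17619 to 25868 of catalase, 12550 to 18928 of galactinol synthase and 9540 to 14971 of PPDK. For each of the 5 genes this range lies wholly above the range of mutant library C. The 5 were chosen as lower from the same means, and C only marks a place by size factor. This separation is therefore a description and no test. Libraries A and B of the wild type were not separated from the mutant by these limits alone.

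A further limit can be set by taking a coefficient of variation of at most 20%, a choice made after seeing the data. Of the 268 recovered wild type genes with at least 1000 normalised reads, 98.1% met it, and their median was 6.04%, though these genes had been selected by the authors' test. Under it, inositol phosphate synthase lay at 38308 to 57227 normalised reads in any wild type library and at 13467 to 20163 in any mutant library. Beta-amylase lay at 30994 to 46887 against 14664 to 22284, and catalase at 16422 to 24401 against 6013 to 8964. Galactinol synthase lay at 12617 to 18602 against 6114 to 8526, and PPDK at 11033 to 15023 against 4111 to 5958. Ranges this narrow around means this far apart cannot meet, so their separation follows from the assumption and from the choice of the 5 genes and is no result. For the mutant the assumption could not be checked, since 0 of its genes with at least 1000 normalised reads were recovered.

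**Figure D2:**
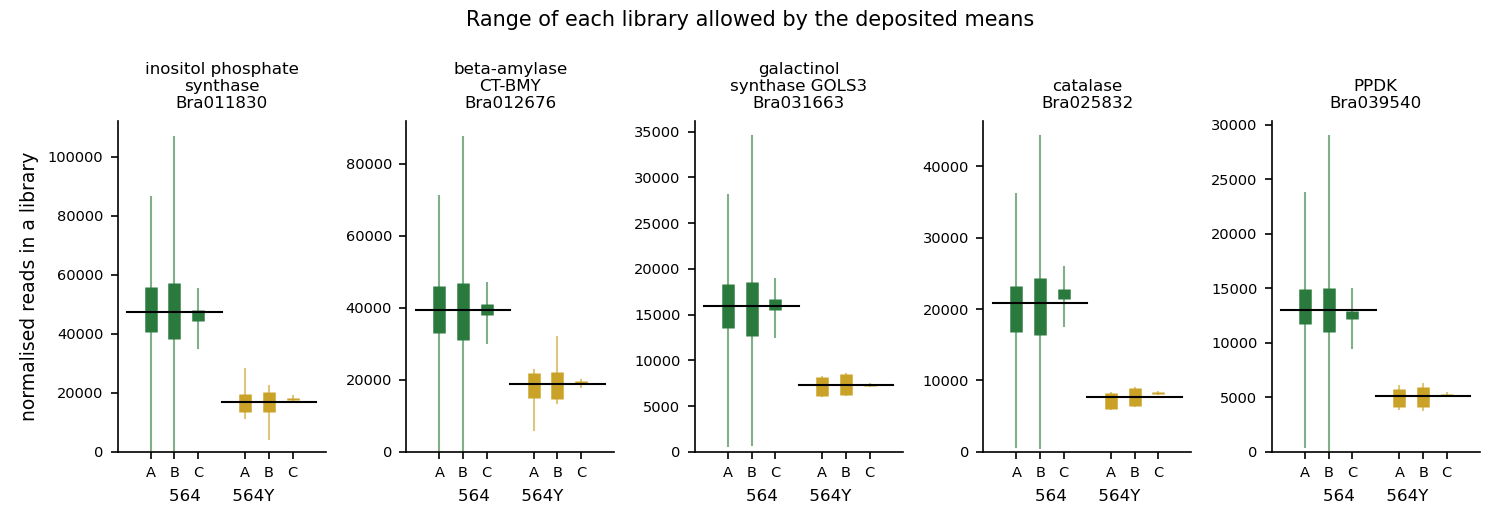
Normalised reads (vertical axis, from 0) that each recovered library A, B and C of strains 564 and 564Y can have held, 1 panel per gene. Thin lines span all sets of whole reads that meet the deposited means, thick bars the sets with a coefficient of variation up to 20%, and black lines are the authors' group means. The thick bars stand apart by the assumption itself. The thin line of library C in 564 lies above that in 564Y in all 5 panels, for genes chosen as lower from the same means, so this too is no test.

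Which direction prevailed among abundant genes depended on the strain used for sorting. Of the 15 listed genes over 10000 mean reads in the wild type, 12 were lower in the mutant and 3 were higher, which is 80.0% lower. The share was 71.1% of 273 genes from 1000 to 10000 reads, 54.6% of 1180 genes from 100 to 1000, and 23.0% of 1490 genes up to 100. Sorting by wild type reads favours lower genes by construction, and a gene with few such reads can hardly be called lower. The shares over all listed genes set beside the pathway lists below are not matched for level. Sorted by mutant reads the pattern turned over: 19 listed genes exceeded 10000 mean reads there, and the 2 of them that were lower were inositol phosphate synthase and beta-amylase.

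The other 7 lower genes over 10000 reads fell by 2.02-fold to 3.75-fold, against 2.10-fold to 2.78-fold for the 5. They were Bra003526 and Bra013674, both named only as hypothetical proteins, at 3.75-fold and 3.72-fold. The others were the cytosolic glutamine synthetase GLN1_4 (Bra023573, 2.70-fold), a phosphoethanolamine N-methyltransferase (Bra003840, 2.15-fold) of phosphocholine synthesis, and 3 genes of pathogen defence. These 3 were a beta-1,3-glucanase (Bra014635, 2.89-fold), a basic glucanase (Bra003273, 2.02-fold) and PR-1a (Bra013123, 2.15-fold). The 3 higher genes were a tyrosine-rich hydroxyproline-rich glycoprotein (Bra037731, 2.26-fold), a xyloglucan endotransglucosylase (Bra013164, 2.95-fold) and ATSDAT (Bra024934, 2.43-fold).

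Just inside the limit, PPDK was the lowest of the 5 at 12680 mean reads. Just outside it among lower genes stood CYP83B1 (Bra034941) at 9514, early dehydration-induced 13 (Bra022816) at 8276 and chloroplast ferritin-1 (Bra005677) at 7456. Their falls of 2.64-fold, 2.64-fold and 2.44-fold lay within the range of the 5.

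The size of the fall was moderate among lower genes. The median log2 ratio of the 5 was -1.35, beside -1.43 for the other 7 lower genes over 10000 mean wild type reads. It was -1.54 over the 1129 lower genes with reads in both strains, which are not matched for level. Inositol phosphate synthase ranked 608 of these 1129 by fold, and beta-amylase ranked 1037.

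**Figure D3:**
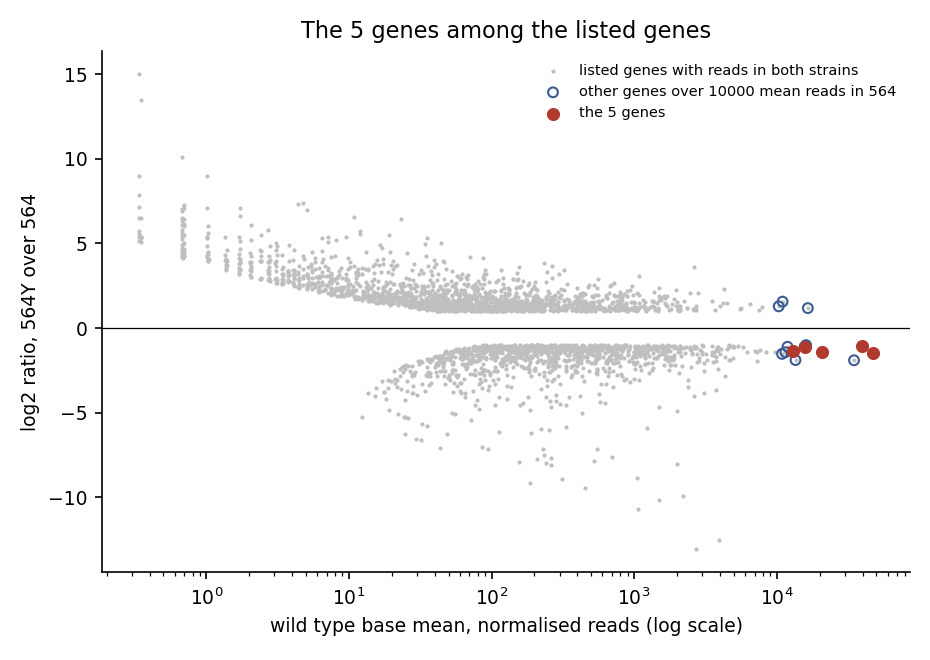
Log2 ratio of 564Y over 564 (vertical axis) against wild type base mean in normalised reads (horizontal axis, log scale) for listed genes with reads in both strains; red points are the 5 genes and open circles the other genes over 10000 mean reads in 564. The 5 red points lie at the far right between -1.47 and -1.07, among lower genes whose median is -1.54.

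Likeness was measured as the distance in log2 ratio and log2 wild type base mean over the 2 strains, so it describes level and fold alone. Nearest to galactinol synthase stood PR-1a (Bra013123) at a distance of 0.0267 and the basic glucanase (Bra003273) at 0.116. Nearest to PPDK stood GLN1_4 (Bra023573) at 0.190, the phosphoethanolamine N-methyltransferase (Bra003840) at 0.274 and the beta-1,3-glucanase (Bra014635) at 0.307. Inositol phosphate synthase and beta-amylase were each other's nearest gene, at 0.486. The unnamed Bra003526 came second for each of them. Catalase had galactinol synthase nearest, at 0.501.

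Copies of the same enzymes were rare in the table. No second inositol phosphate synthase, beta-amylase or catalase was listed, which means only that no other matched copy passed the authors' limits. A second galactinol synthase (Bra004474) was also lower, at a wild type level of 35.5 normalised reads per kilobase beside 15725 for ATGOLS3. It held 44.5, 34.6 and 29.1 normalised reads in wild type libraries A, B and C, and 4.80, 11.5 and 12.7 in those of the mutant. The strains did not overlap, and the fall was 3.73-fold (counting interval 2.46 to 5.79), with an adjusted p of 0.000195 in the authors' deposited table. Here and below, a lack of overlap describes genes that had all passed the authors' limits. Its share over all listed genes was not counted, so nothing particular to a gene is read from it.

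A second PPDK entry (Bra039539), of 369 bases of coding length against 2628 for Bra039540, was lower too. It held 130.6, 140.4 and 118.6 normalised reads in wild type libraries against 42.3, 59.7 and 82.1 in mutant ones. The mutant libraries were spread from 42.3 to 82.1 but stayed below the wild type, and the fall was 2.12-fold (counting interval 1.77 to 2.53). Since the handling of reads that fit several near-identical copies is not known, the split between such entries is uncertain.

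Of 8 listed genes of the inositol and galactinol pathway, 5 were higher and 3 were lower, the 3 being inositol phosphate synthase and both galactinol synthases. The background was 59.7% higher among all listed genes. The median log2 ratio of the 8 was 1.20, beside 1.15 over the 2810 listed genes with reads in both strains, so the list as a whole lay near the background. Without the 2 genes that are lower by choice, 5 of 6 were higher. The higher genes were all 3 listed inositol oxygenases, which convert inositol to glucuronic acid for the cell wall, and 2 inositol transporters.

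The oxygenase Bra036701 (myo-inositol oxygenase 2) held 9.11, 14.2 and 23.9 normalised reads in wild type libraries against 275.7, 224.2 and 276.4 in mutant ones. It rose 16.4-fold with no overlap, and its adjusted p was 1.28e-60 in the authors' deposited table. MIOX4 (Bra041014) rose 8.82-fold, from 8.50 ± 2.47 to 75.0 ± 9.47 normalised reads (SD, n = 3, where n counts the recovered libraries of a strain here and below). The low-level copy Bra039021 rose 12.2-fold, from 1.37 ± 1.19 to 16.8 ± 3.38 (SD, n = 3 each).

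The transporter INT1 (Bra004756), which in Arabidopsis exports inositol from the vacuole, rose 2.61-fold from 155.0 ± 20.3 to 405.1 ± 37.8 normalised reads (SD, n = 3 each). INT4 (Bra012714), a plasma membrane carrier in Arabidopsis, rose 2.03-fold from 77.4 ± 5.79 to 156.9 ± 16.8 (SD, n = 3 each). Even after these rises, the oxygenases and transporters stayed well below inositol phosphate synthase in the mutant, at 17.8 to 271.2 normalised reads per kilobase against 11128.

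Starch breakdown had 3 listed genes, of which 2 were lower, beside 40.3% of all listed genes. Without beta-amylase, lower by choice, 1 was higher and 1 was lower. The lower one was a starch phosphorylase (Bra033098, glycogen phosphorylase B), which releases glucose 1-phosphate from glucan chains. It held 1365, 1282 and 1139 normalised reads in wild type libraries against 553.3, 601.3 and 584.2 in mutant ones, a 2.18-fold fall without overlap, close in size to the 2.10-fold of beta-amylase. The third gene, alpha-glucan water dikinase 2 (Bra018156), from a family that phosphorylates starch, had 0 reads in all 3 wild type libraries and 98.0, 90.4 and 115.3 normalised reads in the mutant. Against a floor of 3 reads over the wild type group it was at least 98.9-fold higher. The entry is only 390 bases of coding length. For starch synthesis, 0 genes were listed.

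Of 14 genes for sucrose, trehalose and sugar transport, 12 were higher and 2 were lower, beside 59.7% higher among all listed genes. Their median log2 ratio was 1.57 over the 13 with reads in both strains, beside 1.15 for all listed genes. Another 8 genes matched by a word in their names were left out of this count: 5 of an invertase or pectin methylesterase inhibitor family, 2 phosphofructokinases and a nucleotide-sugar transporter. The 2 lower genes had the highest wild type levels of the 14, at 1659 normalised reads per kilobase for SUC2 (Bra012340) and 1137 for SUS3 (Bra036282). With 2501 and 2708 mean wild type reads, they lay where 71.1% of listed genes were lower. Most of the 12 higher genes had fewer than 100 such reads, where 23.0% were lower. The share of 59.7% is thus not matched to these levels. The phloem loader SUC2 held 2583, 2507 and 2587 normalised reads in wild type libraries against 829.0, 889.0 and 1040 in mutant ones, a 2.78-fold fall. Sucrose synthase SUS3 held 2759, 2775 and 2777 against 675.3, 654.2 and 770.7, a 3.96-fold fall. Neither gene overlapped between strains.

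Among the higher sugar genes, the trehalose phosphate synthase family gene ATTPS9 (Bra016328) rose 3.05-fold, with authors' means of 456.0 and 1391 normalised reads. Sucrose-phosphatase 1 (Bra017287), of the last step of sucrose synthesis, rose 39.7-fold from 6.51 ± 2.68 to 258.0 ± 24.8 (SD, n = 3 each). The sugar transporter ERD6-like 16 (Bra002189) rose 41.6-fold from 9.60 ± 5.23 to 399.7 ± 29.4 (SD, n = 3 each). The other listed ERD6-like transporters rose less: Bra018505 19.6-fold, Bra031648 2.97-fold, Bra008184 2.63-fold and Bra015858 2.03-fold. Of the genes matched by a word alone, the inhibitor family gene Bra019179 rose 5.07-fold to 2794 normalised reads, and the phosphofructokinase gene Bra006864, whose family commits sugar to glycolysis, fell 2.87-fold from 1657 ± 114.8 to 576.3 ± 43.8 (SD, n = 3 each).

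Around PPDK, 4 of 5 listed genes of pyruvate and C4 acid metabolism were lower, where 40.3% of all listed genes were. Without Bra039540, lower by choice, 3 of 4 were lower, and these 3 include the second PPDK entry Bra039539. A further match, an isopropylmalate dehydrogenase (Bra023450, 6.47-fold lower), belongs to another pathway. An alanine aminotransferase (Bra009959), which exchanges alanine and pyruvate, held 218.6, 179.0 and 210.2 normalised reads in wild type libraries against 49.9, 35.6 and 22.5 in mutant ones. It fell 5.63-fold without overlap. Phosphoenolpyruvate carboxykinase PCK1 (Bra017856), which makes phosphoenolpyruvate from oxaloacetate, fell 3.11-fold from 44.0 ± 1.66 to 14.1 ± 5.57 (SD, n = 3 each).

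The higher gene of these 5 was a phosphoenolpyruvate carboxylase (Bra004710), the enzyme that consumes phosphoenolpyruvate. It held 1184, 1162 and 1259 normalised reads in the wild type, and its authors' mean in the mutant was 2615, a 2.18-fold rise with an adjusted p of 1.25e-31 in the authors' deposited table.

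Catalase was the only gene matched to photorespiration that passed 10000 mean reads, so that the name photorespiration rests on 1 of the 5 genes. Its product label reads only catalase, so which form it is, and its part in photorespiration, are not given. Of 8 matches, 4 were isopropylmalate or methylthioalkylmalate synthases, which serve leucine and glucosinolate synthesis and were matched by a word in their names. They are Bra013009 (21.1-fold lower), Bra029355 (3.31-fold lower), Bra013007 (703.6-fold lower on few mutant reads, counting interval 194.4 to 5816) and Bra013011 (8.26-fold higher). The remaining 4 were split, with catalase and a peroxisomal membrane protein-related gene lower and a glycolate oxidase and SHM2 higher, and a median log2 ratio of 0.04. Of all listed genes, 40.3% were lower.

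Glycolate oxidase (Bra021533), of the enzyme family that makes the hydrogen peroxide catalase removes, held 56.7, 36.6 and 37.5 normalised reads in wild type libraries against 106.6, 142.4 and 128.0 in mutant ones. It rose 2.88-fold without overlap, yet its mutant level of 115.1 normalised reads per kilobase stood beside 5203 for catalase. Serine hydroxymethyltransferase SHM2 (Bra016147), of a family that makes serine from glycine, rose 10.6-fold from 27.6 ± 2.94 to 293.0 ± 21.3 (SD, n = 3 each). The peroxisomal membrane protein-related gene (Bra000826) fell 3.43-fold from 401.4 ± 13.0 to 116.9 ± 9.15 (SD, n = 3 each).

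**Figure D4:**
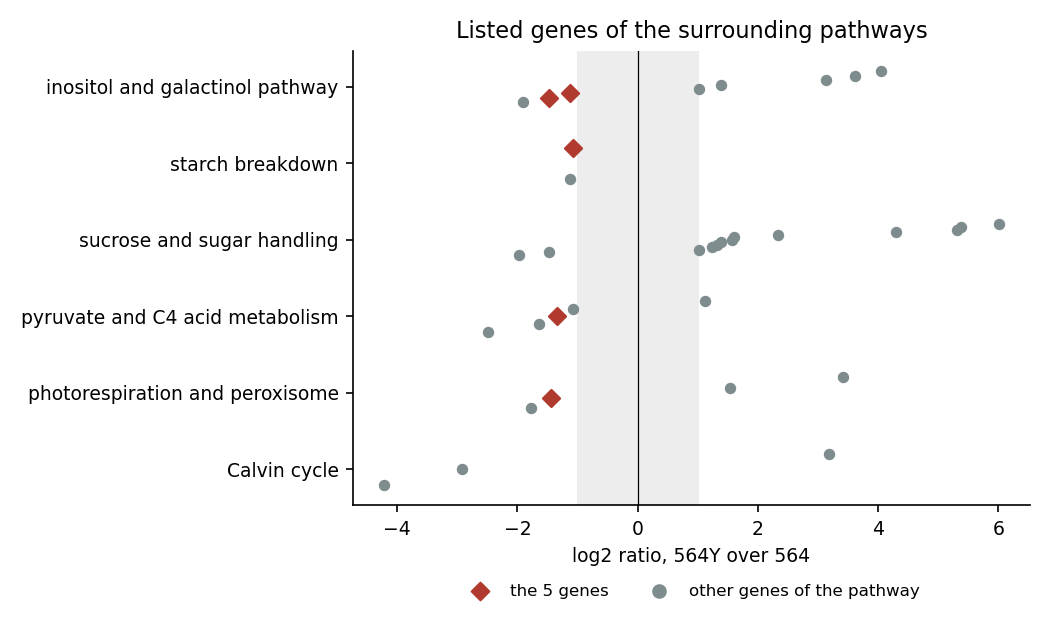
Log2 ratio of 564Y over 564 (horizontal axis) of listed genes in each pathway list (vertical axis), without genes whose product lies outside the pathway and without genes at 0 reads in a strain; diamonds are the 5 genes, and the grey band between -1 and 1 is empty because the authors listed no gene there. The inositol list holds 5 higher and 3 lower genes, and in the sugar list 2 genes lie on the lower side.

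Other routes of hydrogen peroxide and carbon fixation added little. The 3 matches for ascorbate and glutathione peroxidases were lower, but they are 2 glutathione S-transferases ATGSTF9 (Bra022815, 2.22-fold, and Bra021673, 2.08-fold) and a chorismate mutase (Bra036217, 2.01-fold) with an annotated peroxidase activity. In the Calvin cycle, 2 ribulose bisphosphate carboxylase genes were lower at low levels (Bra034024 at 49.1 against 6.43 normalised reads and Bra034027 at 18.1 against 0.971), and a transketolase-like gene (Bra003426) was higher at 15.4 against 1.69. A further match, the receptor kinase CES101 (Bra001903, 2.46-fold lower), is named after a carboxylase gene. These few genes stand beside 40.3% lower among all listed genes.

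Galactinol synthase ATGOLS3 is known from the cold response of Arabidopsis, so cold response genes were counted beside it. The 2 listed ones, both COR413-PM2, were higher: Bra012885 rose from 184.5 ± 32.6 to 460.3 ± 41.2 normalised reads (SD, n = 3 each), 2.50-fold, and Bra036859 rose 2.48-fold with authors' means of 423.2 and 1050. Among all listed genes 59.7% were higher.

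Listed genes matched by words in their names as markers of leaf and of other organs were summed per library. Whether each of them marks that organ in this plant was not tested. The summed level of the 2 listed green leaf markers, photosystem I subunit G and protochlorophyllide reductase, both lower, was 1490 to 2386 normalised reads over the wild type libraries and 577.3 to 777.1 over those of the mutant. Of all listed genes, 40.3% were lower. Photosystem I subunit G (Bra038011) held most of this sum, at 2077, 1152 and 1538 in the wild type, with an adjusted p of 0.000837 in the authors' deposited table. Without it, the 1 gene left held 309.7 to 353.8 and 60.6 to 67.3, which do not overlap. The 9 flower markers, 6 higher and 3 lower, summed to 831.2 to 880.5 and 1272 to 1510, beside 59.7% higher among all listed genes. Without the generic MADS-box protein Bra004928, the other 8 summed to 770.0 to 799.5 and 762.9 to 834.7, which overlap. The 3 root markers, 2 higher and 1 lower, summed to 30.5 to 34.4 and 81.6 to 91.4, and without RHD2 (Bra029194) to 20.3 to 27.3 and 25.0 to 34.6, which overlap too. The 2 seed markers, both higher, summed to 18.2 to 18.7 and 64.5 to 89.3. Without Bra027957, the 1 seed gene left held 0 to 4.16 and 19.5 to 28.8, which do not overlap. For root and seed too, the share to set beside the counts is 59.7% higher among all listed genes. In the wild type 1 flower marker was at 0 reads, and in the mutant 1 root marker was. The part of these differences in the levels of the 5 genes was not tested, and unlisted markers were not analysed here.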

How the data were processed

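RNA was sequenced in 3 wild type and 3 mutant libraries, which the labels call independent biological replicates. The labels' protocol also mentions several time points, while all samples carry 1 stage. The submitters' processing notes name DESeq 1.10.1, TopHat2 2.0.12 and Bowtie2 2.2.3 without a role. For genome build, annotation and counter, the sources used here give nothing.

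The authors deposited 1 table of called genes only (adjusted p under 0.001, absolute log2 ratio of at least 1), so unlisted genes and library depths were not analysed here. Its mean reads and base means, per the file headers, were treated as signal values, and a base mean of 0.001 stands for 0 reads. The log2 ratio and the p-value with its adjusted value are the authors' deposited results. All 2958 lengths were multiples of 3 and were taken as coding lengths, though the header calls them only length. No member identifier (0 of 5) was in the reference table, so no coordinates or sequences are given.

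Whole reads per library were worked out from the mean reads, the base mean and the size factors (wild type 0.988, 0.983 and 0.961, mutant 1.04, 1.04 and 1.02), which genes with 1 read reveal, in Python 3.11.15 with numpy 2.4.6. The recovery was tested on simulated data. Since every listed gene had been selected for the difference, no count model was fitted and no list was tested. Counting intervals are exact binomial at 95% on summed reads and do not cover variation between plants or PCR copies. Apart from the 5 members, the genes named were family copies, all genes over 10000 mean reads, the 3 lower genes just under it, the 3 nearest genes by level and fold, and from each pathway list the 4 with the most reads per kilobase among those reaching 20 normalised reads. Also named were list members outside this rule, chosen after their values were seen. They were the remaining inositol, starch, pyruvate and photorespiration genes, the ERD6-like transporters, Bra016328, Bra017287, Bra003426 and Bra034027. Members and lists were chosen with earlier results of these data known. Genes matched by a word whose product lies outside the pathway were set apart after seeing the matches.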

Additional observations from a re-analysis of the deposited data

How the results depend on the processing

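No paired analysis was possible because the deposited columns are group means and recovered libraries carry no replicate number; for the 5 genes, leaving out replicates, edgeR and DESeq2 were not run because their library counts are not unique. All 5 stayed lower under every scaling tried. This was fixed in advance, since the scalings shift all genes nearly alike and by less than these falls. On unscaled mean reads the log2 ratios were -1.39 (Bra011830), -0.99 (Bra012676), -1.04 (Bra031663), -1.36 (Bra025832) and -1.27 (Bra039540), a shift of 0.08 for the median listed gene. After scaling to equal sums over listed genes, a shift of -0.23, they were -1.71, -1.30, -1.36, -1.67 and -1.59 in the same order. Adding 1 to both base means left them within their counting intervals. Over 5000 mean reads 21 of 29 genes were lower, and over 20000, 4 of 4. Among the top 15 by reads per kilobase, 13 were lower, 4 of them from the 5 genes. With the absolute log2 limit raised to 2 and all matches counted, the inositol list kept 3 higher and 0 lower genes, starch breakdown 0 lower, pyruvate 0 higher and 2 lower, photorespiration 2 lower, peroxide partners 0 lower, sugar handling 9 higher and 0 lower, and cold markers 0 higher. Among these are genes from outside the pathway; without them, a choice made after seeing the data, the same limit kept 1 lower pyruvate gene, 1 higher and 0 lower photorespiration genes, and 6 higher and 0 lower sugar genes, with the other lists as before. With at least 20 normalised reads, 0 Calvin cycle genes were higher. Without genes from outside the pathway but at the authors' limit, 2 photorespiration, 0 peroxide partner and 2 sugar genes were lower. Groups of 3 libraries and means without spread limit any finer ranking of the 5 genes.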
